A study of Mus musculus with 18 samples.

Results

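The transcriptome was measured in neonatal mouse ventricular cardiac fibroblasts given a small interfering RNA (siRNA) against Foxm1, with or without angiotensin II. The comparison set the 3 libraries of the group si-Foxm1+Ang-II against the 3 libraries of the group si-Foxm1, so 6 of the 18 libraries of the series were used for it. Both groups held the Foxm1 siRNA, and angiotensin II was the labelled difference between them. All genes with a mean of at least 1 FPKM (fragments per kilobase of transcript scaled to the mapped fragments of the library) over these 6 libraries were included, which gave 11200 of the 18264 genes of the table. The members include 52 genes whose mean was below 1 FPKM in si-Foxm1 and 173 whose mean was below it in si-Foxm1+Ang-II. The 7064 genes below this level were not tested, and 1183 of them were at 0 in all 6 libraries. Yjefn3 lay just inside the limit with a mean of 1.0002 FPKM, and Fbxo47 lay just outside it with a mean of 0.996 FPKM. The same angiotensin comparison without the Foxm1 siRNA, the 3 libraries of the group Ang-II against the 3 of the group si-NC (a control siRNA), served as the reference and is called the response of control cells below. The labels do not say whether the Ang-II cells also received a control siRNA, nor the dose or duration of angiotensin II or its order relative to the siRNA, nor whether the 3 replicates of a group came from separate cultures or animals. P-values therefore measure the spread between these libraries, which may be technical.

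Angiotensin II is the effector peptide of the renin-angiotensin system and acts on cardiac fibroblasts mainly through the type 1 receptor, which couples to Gq, calcium and mitogen-activated protein kinases. In fibroblasts it is known for driving matrix synthesis and the myofibroblast state, in part through transforming growth factor beta (TGF-beta). Foxm1 is a forkhead transcription factor that is itself cell cycle regulated and that, with the MuvB complex, drives genes of G2 and mitosis. Promoters of those genes often carry CCAAT boxes, bound by NF-Y, and the cell cycle genes homology region, whose core reads TTTGAA.

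The 12 libraries of the knockdown arm held 18047190 to 19343343 fragments assigned to genes, as recovered from the FPKM values. Replicates of the 6 libraries compared here differed from each other by 1.90 to 2.88 times the variance of counting noise, and Ang-II replicate 3 stood apart from its group, at 5.09 and 5.52 times against the other two. That library enters the reference comparison and the difference between the 2 comparisons. It does not enter the fold changes within the siRNA cells. It does enter the spread that all 12 libraries share in the fit, and so the SE and adjusted p of those changes. Without it 5507 genes were called in the siRNA cells, against 5335 with it (limma, adjusted p below 0.05). The summed level of 18 fibroblast markers was 4060 to 4378 FPKM in the si-Foxm1 libraries and 4754 to 4873 FPKM in the si-Foxm1+Ang-II libraries, with no marker at 0. The sum rose although most of these markers fell. Of the 16 tested, 11 were called lower and 4 higher, at a median log2 change of -0.37, beside 34.8% lower and 12.9% higher over all tested genes. The 23 cardiomyocyte markers summed to more than the fibroblast markers, 10370 to 11000 FPKM without and 8047 to 8325 FPKM with angiotensin II, so that the cultures labelled as fibroblasts also held abundant cardiomyocyte transcripts. Of these 23 markers 20 fell with angiotensin II, where 34.8% of all tested genes were called lower (limma, adjusted p below 0.05), with a median log2 change of -0.41, for example Actc1, cardiac alpha-actin, from 605 to 382 FPKM and Tnnt2, cardiac troponin T, from 2035 to 1574 FPKM. Endothelial markers also fell, 12 of 13 tested, with a summed level of 119 to 124 FPKM without and 82.4 to 89.8 FPKM with angiotensin II. The 8 smooth muscle and pericyte markers tested were mixed, 4 higher and 3 lower, and macrophage and leukocyte markers summed to 143 to 179 FPKM and to 141 to 161 FPKM. In such bulk libraries fewer cells of a type and less RNA per cell cannot be told apart, and the part of other cell types in the changes below was not tested.

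Foxm1 itself stood at 6.07, 5.13 and 6.71 FPKM in the si-Foxm1 libraries and at 3.55, 3.36 and 3.03 FPKM in the si-Foxm1+Ang-II libraries. The groups did not overlap, and all 6 values lay below the si-NC libraries, which held 10.4, 9.64 and 10.3 FPKM. The log2 change with angiotensin II was -0.69 ± 0.10 (SE; limma with Benjamini-Hochberg adjustment over 11200 genes, adjusted p = 6.88e-05). All fold changes below are on this scale, log2(FPKM + 1), which understates changes, most of all for genes near or under 1 FPKM. With 0.1 added in place of 1 the change of Foxm1 was -0.823. The exact permutation test of Foxm1 over the 6 libraries gave p = 0.1, the smallest that 3 against 3 allows. In the Ang-II libraries Foxm1 was at 4.233, 4.035 and 5.649 FPKM. These values overlapped those of si-Foxm1 and lay above those of si-Foxm1+Ang-II. Without the siRNA the change was -0.99 ± 0.10, and the 2 changes were not separated by the test (difference 0.30 ± 0.14, adjusted p = 0.346). Usp10, a deubiquitinase, and Mapk12, a p38-family kinase, did not pass the test (-0.04 ± 0.04, adjusted p = 0.438, and -0.01 ± 0.05, adjusted p = 0.938).

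Over all genes, angiotensin II changed 5335 of the 11200 genes tested in the siRNA cells (47.6%; limma, adjusted p below 0.05), 1442 higher (12.9%) and 3893 lower (34.8%). The balance of directions depended on the scaling: with median-of-ratios factors 2460 genes were higher and 2277 lower, and with quantile normalisation 2412 and 2333, against a median log2 change over all genes of -0.07 as deposited. Most calls were small, and 3720 of the 5335 (69.7%) were under 1.25-fold. Changes of at least 2-fold were called for 123 genes, 54 higher and 69 lower. The 3 and 3 libraries did not overlap for 6391 of the genes tested (57.1%).

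**Figure D1:**
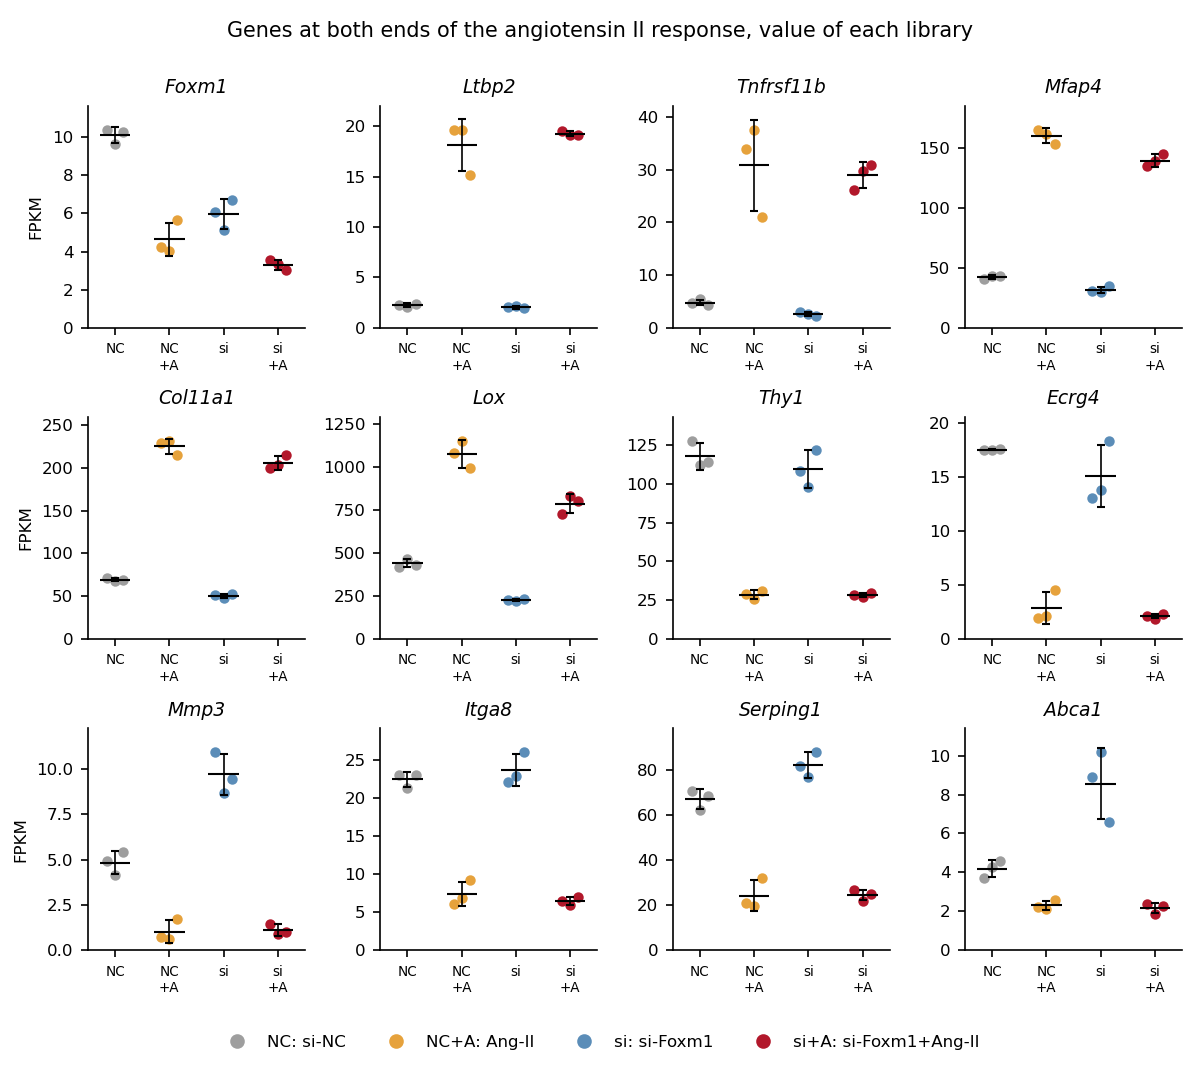
FPKM of each library (points), with the mean (line) and SD (bars) of each group of 3, for Foxm1 and genes at both ends of the response to angiotensin II; each vertical axis starts at 0. Ltbp2 and Tnfrsf11b were near 2 to 3 FPKM without and above 19 FPKM with angiotensin II in the siRNA cells, and Thy1 and Ecrg4 moved the other way.

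The 15 largest rises, ranked among called genes whose libraries did not overlap, included genes of secreted and matrix proteins. Tnfrsf11b, which encodes osteoprotegerin, the decoy receptor for RANKL, stood at 3.02, 2.61 and 2.26 FPKM without and at 26.1, 29.8 and 30.9 FPKM with angiotensin II, a log2 change of 3.05 ± 0.16 (adjusted p = 9.64e-09). Ltbp2, an elastic microfibril protein of the family named for latent TGF-beta binding, went from 2.04, 2.21 and 1.92 FPKM to 19.5, 19.1 and 19.2 FPKM (2.73 ± 0.08). For both, every treated library was several times above every untreated one. Mfap4, another microfibril protein, was at 30.4, 30 and 34.6 FPKM and then at 134, 139 and 145 FPKM (2.10 ± 0.05). Col11a1, the alpha 1 chain of collagen XI, which nucleates fibrils, was at 50.9, 47.8 and 52.2 FPKM and then at 200, 203 and 215 FPKM (2.01 ± 0.04). Lox, the lysyl oxidase that crosslinks collagen and elastin, was at 225, 219 and 231 FPKM and then at 730, 834 and 801 FPKM (1.80 ± 0.06). That none of these groups overlapped was a condition of the ranking. The rest of the 15 highest changes belonged to Ccl17, Anxa8, Serpinb1a, Ptgs2, Cdh10, Cx3cl1, Col12a1, Rflnb, Tll1 and Ctsw, at log2 changes of 1.61 to 2.27. They include 2 chemokines (Ccl17 and Cx3cl1), the inducible cyclooxygenase (Ptgs2), a fibril-associated collagen (Col12a1) and a tolloid-type protease that cleaves procollagen (Tll1).

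Among the genes that fell most, ranked under the same condition of no overlap, were surface proteins and secreted regulators. Thy1, the fibroblast surface protein CD90, stood at 108, 97.8 and 122 FPKM and fell to 28.4, 27.3 and 29.4 FPKM (-1.90 ± 0.08, adjusted p = 1.39e-09). Ecrg4, the precursor of the secreted peptide augurin, went from 13.0, 13.8 and 18.4 FPKM to 2.15, 1.88 and 2.31 FPKM (-2.35 ± 0.18). Mmp3, stromelysin 1, went from 10.96, 8.71 and 9.49 FPKM to 1.46, 0.868 and 1.02 FPKM (-2.35 ± 0.17). The ranking required the highest treated library to lie below the lowest untreated one, and in each case the margin was wide. Serping1, the C1 inhibitor of the complement cascade, went from 81.5, 76.7 and 88.0 FPKM to 26.6, 21.9 and 25.0 FPKM (-1.70 ± 0.13). Itga8, the integrin alpha 8 chain, went from 22.0, 22.8 and 26.0 FPKM to 6.44, 5.99 and 6.97 FPKM (-1.72 ± 0.10). Selenop, the plasma selenium carrier, went from 89.3, 92.8 and 88.7 FPKM to 28.5, 27.8 and 29.3 FPKM (-1.63 ± 0.06). The other 9 of the 15 lowest were Ptn, Ch25h, Olfml1, Plat, Angpt2, Abca1, Prelp, Cd34 and Smim41, at log2 changes of -1.85 to -1.51, among them the tissue plasminogen activator (Plat), the cholesterol exporter Abca1 and the enzyme that makes 25-hydroxycholesterol (Ch25h).

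**Figure D2:**
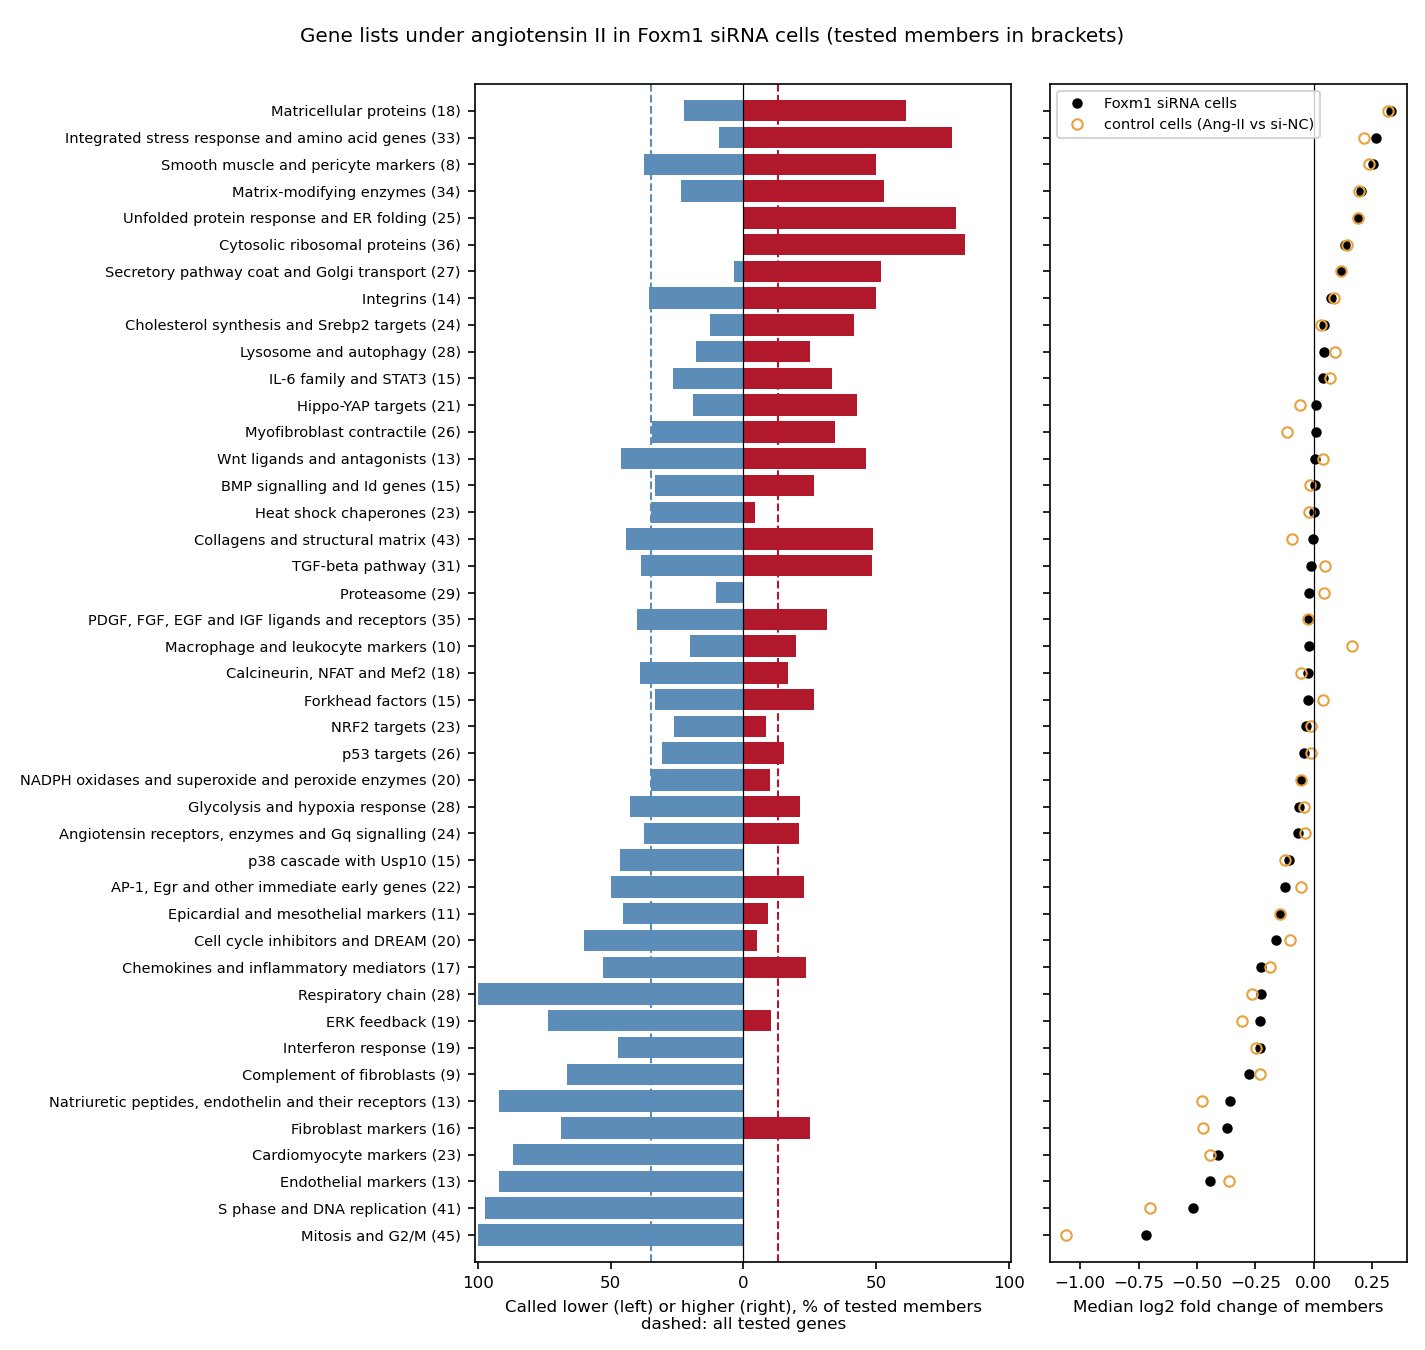
Left, share of tested members called higher (red) or lower (blue) with angiotensin II in the siRNA cells, beside the shares over all tested genes (dashed lines); right, median log2 fold change of each list with (filled) and without (open) the siRNA. All 45 mitosis genes were lower and 30 of 36 ribosomal protein genes were higher; the majority direction of the Gq, calcineurin, BMP, p53, growth factor, NRF2, oxidase, glycolysis, proteasome, heat shock and forkhead lists flipped under another scaling.

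Cell cycle genes fell together. All 45 mitosis and G2/M genes were called lower, with a median log2 change of -0.72 and a range of -0.98 to -0.50, against a median of -0.07 over all genes. Of 41 S phase and DNA replication genes, 40 were called lower, at a median of -0.52; the one that missed the test was Tyms, thymidylate synthase, at -0.06. Nusap1, which binds spindle microtubules, fell from 8.15 to 3.88 FPKM (-0.90 ± 0.06, adjusted p = 9.3e-08), and Cdca8, borealin of the chromosomal passenger complex, fell from 17.6 to 9.75 FPKM (-0.79 ± 0.05). Uhrf1, which maintains DNA methylation at replication forks, fell from 17.8 to 8.67 FPKM (-0.96 ± 0.09), and the replicative helicase subunit Mcm3 fell from 26.3 to 15.9 FPKM (-0.69 ± 0.07). Under median-of-ratios scaling and under quantile normalisation alike, 45 of 45 mitosis genes and 38 of 41 S phase genes were called lower. Of 20 cell cycle inhibitors and DREAM complex genes 1 rose and 12 fell, beside 12.9% higher and 34.8% lower over all genes. With median-of-ratios scaling 2 rose and 6 fell, and with quantile normalisation 2 rose and 8 fell. The riser as deposited was Cdkn2b, the CDK4/6 inhibitor p15, from 14.7 to 24.6 FPKM (0.71 ± 0.07), while its relative Cdkn2c fell from 10.9 to 6.17 FPKM (-0.73 ± 0.08).

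Because the mitosis genes moved as a block, their promoters were read from the RefSeq windows of build GRCm38.p6, 250 bases before to 50 bases after the start, a build other than the mm39 of the deposited values. Of the 11200 genes 8994 had a window, with both strands searched. Of 37 mitosis genes with a window 28 (75.7%) held CCAAT, 29 (78.4%) held TTTGAA and 24 (64.9%) held both, against 39.1%, 11.6% and 4.90% of all tested genes with a window. The S phase genes held TTTGAA in 4 of 32 (12.5%), and the genes called lower as a whole held it in 13.7%. It was in 15 of 51 windows of genes called lower by at least 2-fold (29.4%) and in 8 of 35 of those called higher by at least 2-fold (22.9%). A match describes letters in a window and is not a binding site. The 3 windows below belong to the mitosis genes with the largest falls among those holding both, with each CCAAT and TTTGAA, on either strand, in capitals. Mki67, the proliferation antigen Ki-67 (chr7:135716330-135716629, minus strand), was at 17.1, 17.1 and 18.9 FPKM without and 8.58, 7.98 and 8.90 FPKM with angiotensin II. Ccnb2, cyclin B2 (chr9:70421505-70421804, minus strand), was at 17.6, 16.0 and 19.0 FPKM and then at 8.62, 9.02 and 8.95 FPKM. Prc1, which bundles midzone microtubules (chr7:80294201-80294500, plus strand), was at 24.8, 24.2 and 28.6 FPKM and then at 14.3, 12.9 and 13.3 FPKM. For all 3 genes every treated library lay below every untreated library.
Mki67: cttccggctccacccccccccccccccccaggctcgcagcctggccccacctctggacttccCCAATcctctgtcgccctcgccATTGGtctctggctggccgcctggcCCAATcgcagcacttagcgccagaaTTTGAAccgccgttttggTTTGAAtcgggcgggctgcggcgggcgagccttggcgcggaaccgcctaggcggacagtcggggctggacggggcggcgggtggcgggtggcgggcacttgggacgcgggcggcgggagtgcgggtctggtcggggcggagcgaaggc
Ccnb2: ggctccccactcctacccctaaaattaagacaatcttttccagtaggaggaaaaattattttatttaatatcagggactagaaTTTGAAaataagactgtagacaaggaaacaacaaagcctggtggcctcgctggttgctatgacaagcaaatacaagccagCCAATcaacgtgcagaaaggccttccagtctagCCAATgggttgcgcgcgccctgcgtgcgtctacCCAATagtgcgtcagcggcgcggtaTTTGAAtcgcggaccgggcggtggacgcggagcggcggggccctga
Prc1: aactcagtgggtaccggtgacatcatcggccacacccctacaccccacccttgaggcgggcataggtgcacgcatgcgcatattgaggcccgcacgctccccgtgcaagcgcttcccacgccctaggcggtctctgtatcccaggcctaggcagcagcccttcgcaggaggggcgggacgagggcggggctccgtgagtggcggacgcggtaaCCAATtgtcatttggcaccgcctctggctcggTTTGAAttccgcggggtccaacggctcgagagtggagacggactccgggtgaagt

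**Figure D3:**
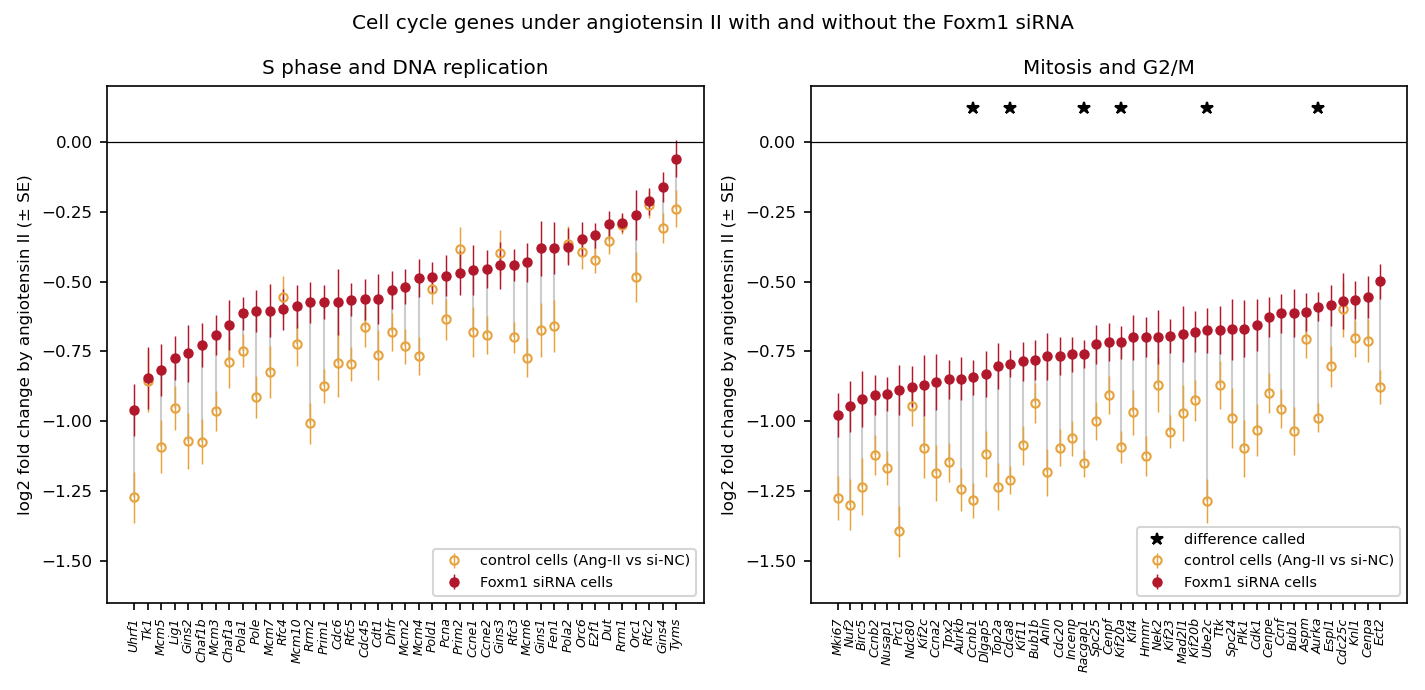
Log2 fold change by angiotensin II (± SE from limma) of each S phase gene (left) and mitosis gene (right) in the siRNA cells (filled) and in control cells (open), ordered by the siRNA value; stars mark the genes whose 2 changes were called different. The mitosis genes lay between -0.98 and -0.50 in the siRNA cells, around a median of -0.72, against a median of -1.06 in control cells.

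The fall of the same genes without the siRNA was larger in the median, -1.06 for mitosis genes and -0.70 for S phase genes, and the median of the differences was 0.30 and 0.20, against -0.02 over all genes. The difference passed the test for 6 of the 45 mitosis genes, all higher, and for no S phase gene, where over all genes it did for 0.955% in either direction and 0.446% higher. Cdca8 was at 17.6 and 9.75 FPKM in the siRNA cells and at 13.1 and 5.07 FPKM in control cells, without and with angiotensin II, a difference of 0.42 ± 0.07 (adjusted p = 0.0142). Ube2c, the E2 enzyme of the anaphase-promoting complex, fell by 0.67 on the log2 scale with the siRNA and by 1.29 without it (difference 0.61 ± 0.11, adjusted p = 0.0217). The others were Ccnb1, Racgap1, Aurka and Kif20a, at differences of 0.44, 0.39, 0.40 and 0.38; Aurka and Kif20a were chosen after their values were seen. None of the 6 was called in all 21 fits, the alternatives and omissions of single libraries included: Cdca8 was called in 20, Racgap1 and Aurka in 16, Ube2c in 14, Ccnb1 in 11 and Kif20a in 9. Without si-Foxm1+Ang-II replicate 2 all 6 calls were lost, and without si-NC replicate 1 or si-Foxm1 replicate 1 all but that of Cdca8.

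Matrix genes moved in both directions. Of 43 collagens and structural matrix genes tested 21 rose and 19 fell, with a median log2 change of -0.004. This and all counts of lists below stand beside 12.9% higher and 34.8% lower over all genes. Col1a1 and Col1a2, the chains of collagen I, rose from 672 to 1292 FPKM (0.94 ± 0.03) and from 701 to 1140 FPKM (0.70 ± 0.03), and Col5a2, a chain of the fibril-regulating collagen V, rose from 296 to 688 FPKM (1.21 ± 0.03). Prelp, a leucine-rich proteoglycan of basement membranes, fell from 38.6 to 12.3 FPKM (-1.58 ± 0.14). Col3a1, the collagen III chain, fell by 0.34 on the log2 scale and Fn1, fibronectin, rose by 0.44; both were chosen after their values were seen. Of 34 matrix-modifying enzymes and inhibitors 18 rose and 8 fell, with a median of 0.20: Plod2, the lysyl hydroxylase of telopeptides, rose from 37.2 to 64.7 FPKM (0.78 ± 0.04), P4ha1, a prolyl hydroxylase subunit, from 61.5 to 87.6 FPKM (0.50 ± 0.03) and Timp1, an inhibitor of metalloproteinases, from 57.9 to 109 FPKM (0.90 ± 0.04). Timp2 of the same inhibitor family fell from 304 to 181 FPKM (-0.74 ± 0.04), and Plat fell from 32.3 to 9.55 FPKM (-1.66 ± 0.13).

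Matricellular proteins, which signal from the matrix without building it, mostly rose, 11 of 18 against 4 lower, at a median of 0.33. Cthrc1, a secreted protein of activated fibroblasts, rose from 29.8 to 87.1 FPKM (1.52 ± 0.05), Ccn5 from 70.7 to 155 FPKM (1.13 ± 0.06), Ccn4 from 52.0 to 101.7 FPKM (0.96 ± 0.06) and Ccn2, connective tissue growth factor, from 889 to 1510 FPKM (0.76 ± 0.09). Tnc, tenascin C, fell from 27.6 to 17.5 FPKM (-0.63 ± 0.03). Postn, periostin, did not pass the test (0.06), and was looked up after its values were seen.

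Of 26 genes of the myofibroblast contractile apparatus 9 rose and 9 fell, and 13 and 7 with median-of-ratios scaling. Actn1, alpha-actinin 1, rose from 141 to 191 FPKM (0.44 ± 0.04) and Cald1, caldesmon, from 122 to 153 FPKM (0.32 ± 0.03), while Mylk, the myosin light chain kinase, fell from 4.47 to 2.29 FPKM (-0.73 ± 0.06). Acta2, alpha smooth muscle actin, the usual mark of a myofibroblast, rose by 0.45, and was chosen after its values were seen. In control cells 3 of the 26 rose and 14 fell, and the difference was called for 2, Tagln and Tpm2, at 0.39 and 0.30, which were called in 6 and 7 of the 21 fits described above. Integrins, the matrix receptors, were mixed as well, with 7 of 14 higher and 5 lower; Itga11, a collagen-binding chain, rose from 3.14 to 9.79 FPKM (1.38 ± 0.08), opposite to Itga8.

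In the TGF-beta pathway 15 of 31 genes rose and 12 fell. The risers included the microfibril protein Ltbp2, described above, and proteins that hold and present the latent ligand. These were Ltbp1, from 3.98 to 7.55 FPKM (0.78 ± 0.06), Ltbp3, from 31.1 to 51.3 FPKM (0.70 ± 0.03), and Lrrc32, the cell surface tether of latent TGF-beta, from 22.1 to 37.5 FPKM (0.74 ± 0.05). Fstl3, a secreted activin antagonist, rose from 23.4 to 63.0 FPKM (1.39 ± 0.10). The ligands Tgfb1, Tgfb2 and Tgfb3 and the receptors Tgfbr1 and Tgfbr2 were each called lower, at -0.24, -0.41, -0.30, -0.26 and -0.60, and were chosen after their values were seen. On the bone morphogenetic protein (BMP) side 4 of 15 genes rose and 5 fell, and 6 and 4 with the other scalings. The Id genes, immediate targets of BMP receptors that block basic helix-loop-helix factors, fell: Id1 from 22.1 to 8.57 FPKM (-1.27 ± 0.07), Id2 from 30.6 to 14.2 FPKM (-1.05 ± 0.08) and Id3 from 84.2 to 38.7 FPKM (-1.10 ± 0.08). Bmp4 fell from 20.5 to 12.7 FPKM (-0.64 ± 0.05), and Gdf6, another BMP-type ligand, rose from 59.5 to 107 FPKM (0.83 ± 0.05).

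The type 1 angiotensin receptor gene Agtr1a was at 2.40, 2.02 and 1.97 FPKM without and at 1.31, 1.48 and 1.16 FPKM with angiotensin II in the siRNA cells (-0.43 ± 0.08, adjusted p = 0.000342). The groups did not overlap. In control cells it was lower throughout, at 0.577 to 0.801 FPKM without and 0.562 to 0.737 FPKM with the peptide, and the difference of the 2 changes did not pass the test (-0.40, adjusted p = 0.102). The Agtr1b and Agtr2 receptors had 0 to 4 recovered fragments per library, at or near the level of 3 fragments that a count of 0 allows. Of 24 genes of angiotensin processing and Gq signalling 5 rose and 9 fell, and 8 and 7 with both other scalings. Rgs4, which shortens Gq signalling, rose from 1.65 to 5.64 FPKM (1.33 ± 0.13), and Ace, the converting enzyme, fell from 16.7 to 9.39 FPKM (-0.77 ± 0.05). Nox4, the oxidase that produces hydrogen peroxide in fibroblasts, rose from 2.78 to 7.17 FPKM (1.11 ± 0.09).

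Feedback genes of the ERK pathway fell, 14 of 19 against 2 higher, at a median of -0.23. Dusp6, the phosphatase of ERK, fell from 13.2 to 8.53 FPKM (-0.58 ± 0.04), Phlda1 from 14.7 to 9.11 FPKM (-0.64 ± 0.04) and Spry2, a Sprouty inhibitor of receptor kinase signalling, from 9.97 to 7.38 FPKM (-0.39 ± 0.06). Immediate early genes split into 5 higher and 11 lower of 22, and 9 and 9 with median-of-ratios scaling; Nr4a1 fell from 6.39 to 4.14 FPKM (-0.53 ± 0.05) and Klf4 rose from 8.56 to 11.5 FPKM (0.38 ± 0.04). Of 15 p38 cascade genes 0 rose and 7 fell, a count of 1 and 3 with median-of-ratios scaling, led by Map3k6 (-0.51 ± 0.06) and Mapk14, p38 alpha, which fell from 30.2 to 26.6 FPKM (-0.18 ± 0.03). Calcineurin, NFAT and Mef2 genes were called higher for 3 and lower for 7 of 18, and for 5 and 4 with median-of-ratios scaling; Nfat5 rose (0.42 ± 0.06) and Mef2a fell (-0.34 ± 0.03).

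Genes of protein folding in the endoplasmic reticulum (ER) rose as a group of small changes. Of 25 unfolded protein response genes 20 were called higher and 0 lower, at a median of 0.19, against 12.9% higher over all genes. Hyou1, an ER chaperone of the Hsp110 type, rose from 32.6 to 49.6 FPKM (0.59 ± 0.04, adjusted p = 3.67e-08) and P4hb, protein disulfide isomerase and a subunit of prolyl 4-hydroxylase, from 319 to 394 FPKM (0.31 ± 0.03). Of 33 genes of the integrated stress response and amino acid supply 26 rose and 3 fell, at a median of 0.27: Cth, which makes cysteine, rose from 9.03 to 20.4 FPKM (1.09 ± 0.05), Pycr1, which makes proline, from 8.88 to 14.7 FPKM (0.67 ± 0.05) and the glycine carrier Slc6a9 from 12.2 to 20.2 FPKM (0.69 ± 0.05). Secretory pathway coat and transport genes followed, 14 of 27 higher and 1 lower, with the cargo receptor Lman1 going from 47.0 to 66.0 FPKM (0.48 ± 0.03). These lists did not change direction with either scaling, and the difference from control cells was called for 1 of their members, Phgdh (0.21, chosen after its value was seen).

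The ER stress element, CCAAT and CCACG with 9 bases between them, was found in 9 of 22 unfolded protein response promoters with a window (40.9%) and in 16 of all 8994 windows (0.178%). The 3 members with the largest rises among those holding it are shown, with the element on either strand in capitals. Hspa5, the chaperone BiP (chr2:34771840-34772139, plus strand), was at 298, 306 and 299.6 FPKM without and 368, 379 and 383 FPKM with angiotensin II. Dnajc3, an ER co-chaperone (chr14:118937682-118937981, plus strand), was at 27.99, 28.5 and 29.2 FPKM and then at 34.6, 34.4 and 36.1 FPKM. Canx, the lectin chaperone calnexin (chr11:50325624-50325923, minus strand), was at 136, 134 and 137 FPKM and then at 156, 159 and 163 FPKM. All treated libraries lay above all untreated libraries for these genes.
Hspa5: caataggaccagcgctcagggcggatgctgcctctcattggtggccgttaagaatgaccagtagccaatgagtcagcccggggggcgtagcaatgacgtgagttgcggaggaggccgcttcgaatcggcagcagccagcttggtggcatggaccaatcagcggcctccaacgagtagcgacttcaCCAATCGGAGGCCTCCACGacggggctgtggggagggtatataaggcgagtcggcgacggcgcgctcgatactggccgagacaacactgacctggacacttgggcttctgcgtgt
Dnajc3: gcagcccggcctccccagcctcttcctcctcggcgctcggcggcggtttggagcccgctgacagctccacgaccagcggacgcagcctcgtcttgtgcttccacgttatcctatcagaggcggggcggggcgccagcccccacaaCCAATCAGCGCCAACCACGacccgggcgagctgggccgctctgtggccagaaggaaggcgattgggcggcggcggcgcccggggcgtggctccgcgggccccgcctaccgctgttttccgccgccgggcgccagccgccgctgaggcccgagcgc
Canx: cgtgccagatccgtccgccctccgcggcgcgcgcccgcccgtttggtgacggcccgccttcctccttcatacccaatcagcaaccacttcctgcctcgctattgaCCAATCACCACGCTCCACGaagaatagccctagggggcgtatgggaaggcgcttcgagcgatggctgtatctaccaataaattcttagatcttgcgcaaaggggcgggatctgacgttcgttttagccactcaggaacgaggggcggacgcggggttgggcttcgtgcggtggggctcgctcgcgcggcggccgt

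Cytosolic ribosomal protein genes rose, 30 of 36, by a median of 0.14 on the log2 scale, with 0 lower; with quantile normalisation 18 were higher. Rplp1 of the ribosomal stalk went from 1874 to 2246 FPKM (0.26 ± 0.03). Nuclear genes of the respiratory chain fell, 28 of 28, by a median of -0.23, for example Ndufb10 of complex I from 228 to 173 FPKM (-0.40 ± 0.04). The cardiomyocyte marker sum fell alongside, and its part in the respiratory chain result was not tested.

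Inflammatory mediators were split by gene. Of 17 chemokines and related genes 4 rose and 9 fell: Ccl2, the monocyte chemokine, fell from 38.5 to 15.3 FPKM (-1.28 ± 0.12), Cxcl12 rose from 29.9 to 46.5 FPKM (0.62 ± 0.05), and Cx3cl1 and Ptgs2 were among the largest rises. Il6 rose from 3.48 to 10.8 FPKM (1.40 ± 0.14) and its relative Lif from 1.99 to 4.65 FPKM (0.92 ± 0.09), with 5 of 15 genes of that family higher and 4 lower. Interferon response genes were called lower for 9 of 19 and higher for 0, at a median of -0.23, and Irf1 went from 4.82 to 3.12 FPKM (-0.50 ± 0.07). Complement genes of fibroblasts fell for 6 of 9, at a median of -0.28, with Serping1 described above among them. Natriuretic peptide, endothelin and receptor genes fell for 12 of 13, at a median of -0.36. Ednrb, the endothelin B receptor, went from 4.10 to 0.975 FPKM (-1.37 ± 0.10), Npr3, the natriuretic peptide clearance receptor, from 4.77 to 1.36 FPKM (-1.29 ± 0.06) and Nppa, atrial natriuretic peptide, from 1191 to 935 FPKM (-0.35 ± 0.05). Nppa is also one of the 23 cardiomyocyte markers. Fibroblast markers fell for 11 of 16 and rose for 4, with Pdgfra, the platelet-derived growth factor receptor alpha, going from 11.98 to 4.79 FPKM (-1.17 ± 0.11) and Tbx20 from 97.6 to 58.9 FPKM (-0.72 ± 0.04).

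**Figure D4:**
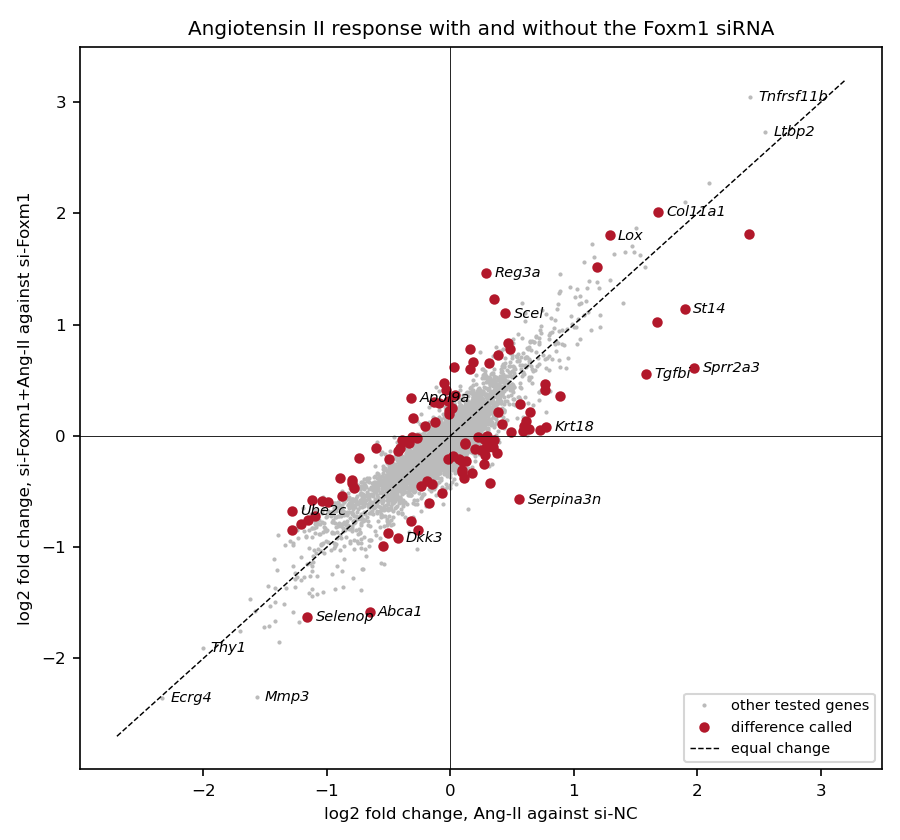
Log2 fold change by angiotensin II of the 11200 tested genes in control cells (horizontal) and in Foxm1 siRNA cells (vertical); red points mark the 107 genes whose 2 changes were called different, and the dashed line marks equal change. Most genes lay along the line, while Tgfbi, Krt18 and Serpina3n lay below it and Scel and Lox above it.

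Most of the response was shared with cells that lacked the siRNA. In control cells 4966 genes changed (44.3%), 1689 higher and 3277 lower. Higher in both were 1118 genes and lower in both 2732, which made up 72.2% of the calls in siRNA cells and 77.5% of those in control cells, and 84 genes changed at least 2-fold in the same direction in both. Across the 11200 genes the 2 changes had a Pearson correlation of 0.893 and a Spearman correlation of 0.817; the 2 comparisons share no library, and genes are not independent replicates. Opposite calls were made for 17 genes.

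The difference between the 2 changes passed the test for 107 of 11200 genes (0.955%; limma interaction, adjusted p below 0.05), 50 higher and 57 lower in the siRNA cells, 4 of them at least 2-fold. In 29 the change had the same sign and was larger in the siRNA cells, in 42 it was smaller, and in 36 the signs were opposite. The count moved with single libraries: it was 194 without Ang-II replicate 3, 37 without si-Foxm1+Ang-II replicate 2, 54 without si-Foxm1+Ang-II replicate 3, 39, 59 and 58 without si-NC replicate 1, 2 or 3, and 40 and 62 without si-Foxm1 replicate 1 or 2. All 107 kept their sign in all 21 fits, and 29 were called in all 21. Marker sums of other cell types also differed between the arms. The macrophage and leukocyte markers summed to 281 to 288 FPKM in si-NC and 337 to 369 FPKM in Ang-II, above both siRNA groups, and the cardiomyocyte markers to 17940 to 19290 FPKM and 13680 to 14870 FPKM. Of the 10 macrophage and leukocyte markers tested, 0 were called in the difference. Outside that list, the 57 genes lower in the siRNA cells include Mpeg1, the macrophage protein perforin 2, at -0.41 and the cysteine protease Ctss at -0.40. Both were chosen after their values were seen, and they were called in 16 and 13 of the 21 fits. The part of other cell types in these differences was not tested.

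**Figure D5:**
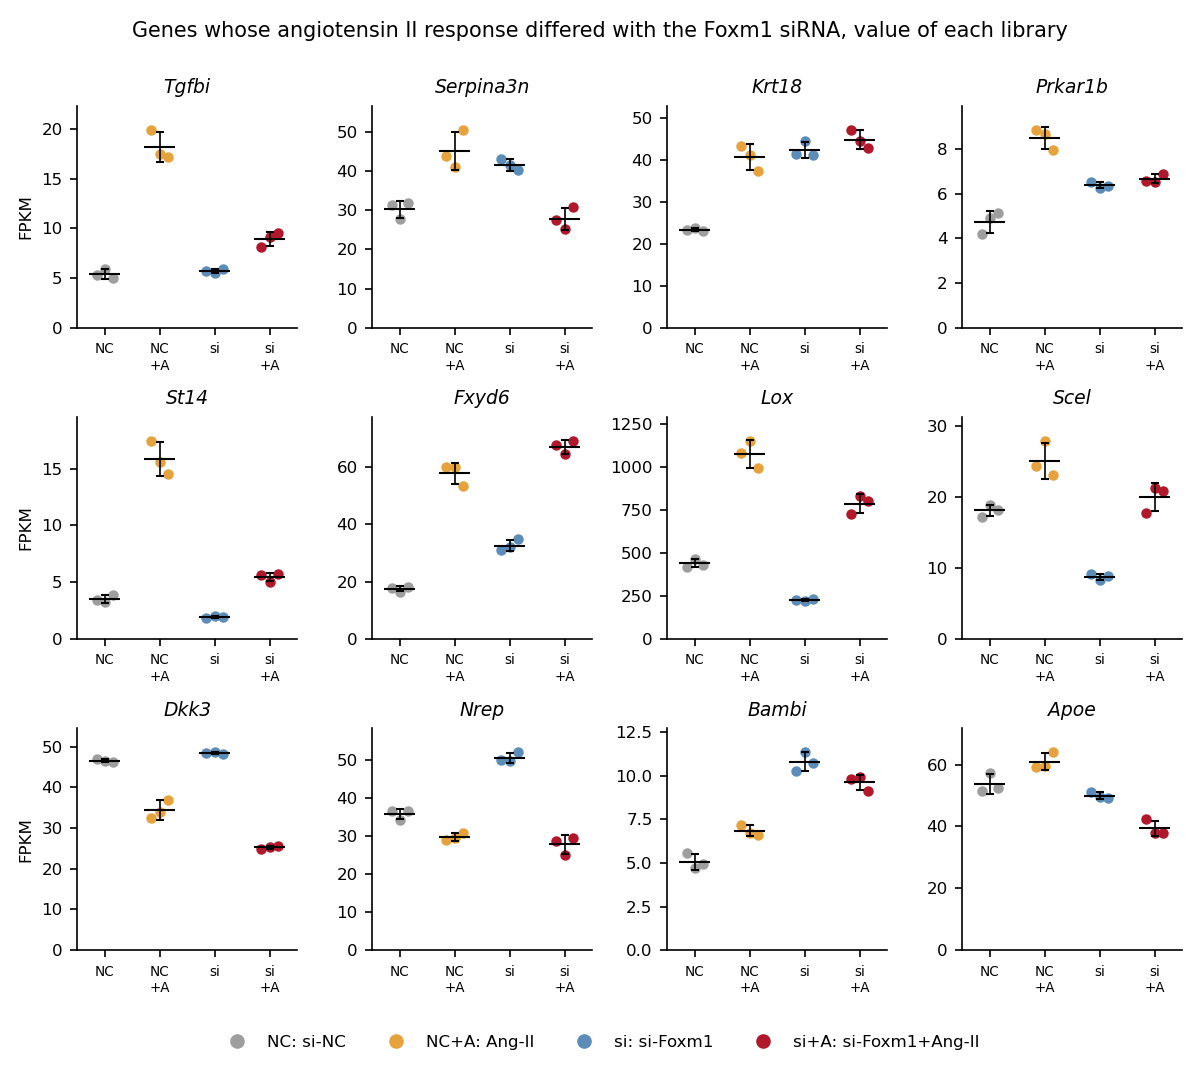
FPKM of each library (points), with the mean (line) and SD (bars) of each group of 3, for 12 genes called in the difference in every fit; each vertical axis starts at 0. Tgfbi rose to about 18 FPKM in control cells and to about 9 FPKM in siRNA cells, and Krt18 was near 42 FPKM in siRNA cells without angiotensin II.

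Genes whose rise was smaller or absent with the siRNA came in several forms. Tgfbi, a TGF-beta induced matrix protein, stood at 5.75, 5.54 and 5.90 FPKM in si-Foxm1 and at 8.13, 9.09 and 9.53 FPKM in si-Foxm1+Ang-II, but went from 5.35, 5.93 and 4.97 FPKM in si-NC to 19.9, 17.5 and 17.2 FPKM in Ang-II. The starting values overlapped and the treated values did not (difference -1.03 ± 0.10, adjusted p = 0.00041). Serpina3n, a secreted protease inhibitor, moved in opposite directions, from 43.1, 41.4 and 40.1 FPKM to 27.3, 25.1 and 30.7 FPKM with the siRNA and from 31.3, 27.7 and 31.7 FPKM to 43.7, 40.9 and 50.5 FPKM without it (difference -1.13 ± 0.11, adjusted p = 0.00041). Krt18, keratin 18, did not pass the test in the siRNA cells, at 41.4, 44.6 and 41.3 FPKM and then 47.3, 44.5 and 42.9 FPKM, and rose in control cells from 23.3, 23.8 and 23.03 FPKM to 43.5, 41.2 and 37.5 FPKM (difference -0.69 ± 0.07). Its range in siRNA cells without angiotensin II overlapped that of control cells with it. Prkar1b, a regulatory subunit of protein kinase A, had a like pattern, with 6.38 and 6.67 FPKM in siRNA cells and 4.76 and 8.50 FPKM in control cells (difference -0.67 ± 0.08). St14, the membrane protease matriptase, rose in both, from 1.93 to 5.46 FPKM with and from 3.52 to 15.9 FPKM without the siRNA (difference -0.76 ± 0.10).

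Falls that were larger with the siRNA included Selenop, from 90.3 to 28.6 FPKM with and from 81.1 to 36.0 FPKM without it (difference -0.47 ± 0.09, adjusted p = 0.0217), and Dkk3, a secreted Dickkopf-family protein, from 48.5 to 25.2 FPKM with and from 46.6 to 34.4 FPKM without it (difference -0.49 ± 0.06, adjusted p = 0.00112). Selenop was called in 14 of the 21 fits and Dkk3 in all 21. Abca1 started at 8.93, 10.2 and 6.57 FPKM in siRNA cells and at 3.70, 4.28 and 4.59 FPKM in control cells, and reached 1.88 to 2.35 FPKM and 2.13 to 2.57 FPKM. The untreated groups were apart and the treated groups overlapped (difference -0.93 ± 0.17, adjusted p = 0.02), and the call ended without si-NC replicate 1, si-Foxm1 replicate 1 or si-Foxm1+Ang-II replicate 2, and with no filter. Serpinb1a rose less with the siRNA, from 6.76 to 26.3 FPKM against 5.91 to 36.0 FPKM (difference -0.61 ± 0.11, adjusted p = 0.0225), and was called in 16 of the 21 fits.

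Rises that were larger on the log2 scale with the siRNA included Lox, which started lower, at 225 FPKM against 440 FPKM in si-NC, and reached 788 FPKM against 1078 FPKM (difference 0.51 ± 0.08, adjusted p = 0.0103). Scel, sciellin, went from 9.10, 8.34 and 8.85 FPKM to 17.7, 21.3 and 20.9 FPKM with the siRNA and from 17.3, 18.9 and 18.2 FPKM to 24.4, 27.9 and 23.1 FPKM without it (difference 0.65 ± 0.10, adjusted p = 0.00993). For Lox as for Scel, the siRNA cells stayed below control cells in the means at both states. Plod2, Cthrc1, Ccn1 and Col11a1 shared this form, each with a larger log2 rise from a lower start, and were called in 12, 11, 16 and 20 of the 21 fits: Col11a1 went from 50.3 to 206 FPKM with and from 69.4 to 225 FPKM without the siRNA (difference 0.33 ± 0.06, adjusted p = 0.0149). The largest positive difference, Reg3a, a secreted lectin, rested on values of 0.702 to 1.02 FPKM and 4.14 to 4.19 FPKM in siRNA cells and of at most 0.460 FPKM in control cells, and it lost its call with a pseudocount of 0.1 (0.82, adjusted p = 0.364) and with voom on recovered fragments (0.21, adjusted p = 0.915). Reg3b (0.88) and Tcp11x2 (0.62) lost their calls under the same 2 alternatives, at 0.94 and 0.50 with the pseudocount of 0.1 and at 0.28 and 0.25 with voom. They also lost them with no filter and without several single libraries, and were called in 11 and 7 of the 21 fits. Sprr2a3, the most negative difference (-1.365), also lost its call with the pseudocount of 0.1 and with voom while its value grew, to -1.634 and -1.646. The call of Sprr2a3 stood in 7 of the 21 fits. It belongs to a family of near-identical copies whose fragments may be split between them.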

How the data were processed

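The FPKM values were made and deposited by the authors; per the submitters' processing notes the tools were fastp, HISAT2 and HTSeq with the mm39 build, and no version, gene model or transcript length is stated in the labels or the file. The labels' protocols give stranded poly(A) libraries from total RNA. Each of the 17960 genes above 0 gave whole fragment counts within 0.02 when its FPKM values were compared between libraries, which gave the depth.

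Values were used as log2(FPKM + 1) without further scaling in limma 3.58.1 (R 4.3.3), with a mean per group over the 12 libraries of si-NC, Ang-II, si-Foxm1 and si-Foxm1+Ang-II, a mean-variance trend and Benjamini-Hochberg adjustment over 11200 genes; a call is an adjusted p below 0.05. The fits were tested on simulated data. Group means are given with SD in the plots (n = 3), and fold changes with their SE.

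Named genes were Foxm1, Usp10, Mapk12, the angiotensin receptors, the 15 highest and 15 lowest changes among called genes whose libraries did not overlap, the 8 highest and 8 lowest called differences, and the 5 members of each of 37 pathway and 9 marker lists with the smallest p. The members and lists were chosen with earlier results of these data known. Alternatives were another pseudocount, filter, scaling, fit and test (voom on recovered counts), a replicate block and leaving out each library. The labels do not say whether the replicate numbers pair the libraries, and the main fit did not pair them. The overexpression libraries entered one alternative fit. The Schwann, mast and red blood cell lists had 1, 2 and 0 members tested. Figures were drawn with matplotlib 3.10.9.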

Additional observations from a re-analysis of the deposited data

Results flagged for a closer look

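Each result here was singled out because the change by angiotensin II differed between Foxm1 siRNA cells and control cells by the limma interaction test (adjusted p below 0.05) among the named genes; each value is the log2 change with the siRNA minus the log2 change without it.

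Cell cycle genes had positive differences, which came from smaller falls with the siRNA: Ube2c 0.612, Shcbp1, a gene of cell division, 0.547, Ccnb1 0.44, Cdca8 0.418 and Racgap1 0.391. Matrix and matricellular genes with positive differences rose more on the log2 scale with the siRNA: Lox 0.511, Ccn1 0.339, Col11a1 0.33, Cthrc1 0.327 and Plod2 0.298. Each started from a lower mean FPKM in the siRNA cells and also ended at a lower mean than in control cells. The BMP-type ligand Gdf6 was at 0.367 and the receptor kinase Kit at 0.312. Scel was at 0.655, Apol9a at 0.653 and Trabd2b at 0.588. Reg3a was at 1.175, Reg3b at 0.879 and Tcp11x2 at 0.621, called in 19, 11 and 7 of the 21 fits. Over the 21 fits, Shcbp1 and Trabd2b were called in 13, Kit in 10 and Gdf6 in 14, each lost with no filter and when one of several libraries was left out.

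The lowest negative difference was that of Sprr2a3, at -1.365, called in 7 of the 21 fits. Tgfbi was at -1.025, St14 at -0.762, Krt18 at -0.694, Prkar1b at -0.669 and Serpinb1a at -0.607. Serpinb1a was called in 16 of the 21 fits. Serpina3n, at -1.129, and Tcim, at -0.745, were called lower with angiotensin II in the siRNA cells and higher in control cells. Tcim was called different in 10 of the 21 fits; the call was lost with either other filter, with the replicate block and without 8 of the 12 libraries in turn. Serpina3n was called in all 21. Genes that fell in both and fell further with the siRNA were Abca1 at -0.927, Dkk3 at -0.49, Selenop at -0.47 and Ace at -0.451. Abca1 was called in 17 of the 21 fits, Dkk3 in 21, Selenop in 14 and Ace in 20. The lysosomal protease Ctsd rose in both and was at -0.164, called in 7 of the 21 fits.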

How the results depend on the processing

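The split of 1442 higher and 3893 lower genes became 2460 and 2277 with median-of-ratios scaling and 2412 and 2333 with quantile normalisation; the total called ran from 4679 to 5507 when single libraries were left out, with 1266 to 1498 higher and 3367 to 4009 lower, and was 5813 with no filter and 5502 with voom. The log2 change of Foxm1 ran from -0.776 to -0.61 over the same omissions. It was -0.823 with a pseudocount of 0.1, -0.839 with voom and -0.573 with quantile normalisation. The 107 called differences became 57 (19 higher) with no filter, 173 (81 higher and 92 lower) with all 6 groups in the fit, 228 (112 and 116) with voom, and 37 to 194 with single libraries left out (11 to 108 higher, 25 to 86 lower). The replicate block gave 5417 and 132 calls. Between si-Foxm1 and si-Foxm1+Ang-II the correlation of same-numbered libraries' deviations was 0.025, 0.039 and 0.011, so these libraries shared little deviation. That cannot show whether same-numbered cultures were prepared together, and si-NC and Ang-II were not compared in this way. Of 5248 values of named genes under the alternatives 112 lost and 5 gained a call, and 0 changed sign while called; the cause was not tested. Calls that ended with scaling included Psmc1, Psmc3, Hsp90aa1, Cryab, Cat and Map2k4, and Rac1 with median-of-ratios scaling. Fold changes depend on the pseudocount, most of all for genes under about 1 FPKM. With 3 libraries a group the median SE of a difference was 0.069, and a difference had to be several times its SE to be called. Serpinb9b, chosen as a call close to the limit, stood at 0.27 ± 0.06 (limma interaction, adjusted p = 0.0493).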

Other observations

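Growth factor genes moved one by one. The list used is named for the PDGF, FGF, EGF and IGF families but is not limited to them. Of its 35 tested ligands and receptors 11 rose and 14 fell, and 14 and 13 with median-of-ratios scaling. Vegfd fell from 23.6 to 9.08 FPKM (-1.29 ± 0.12) and Fgfr2 from 5.33 to 2.19 FPKM (-0.99 ± 0.08), whereas Pdgfrb rose from 76.8 to 104 FPKM (0.44 ± 0.04) and Csf1, the macrophage growth factor, from 99.2 to 147 FPKM (0.56 ± 0.04). Among 13 Wnt ligands and antagonists 6 rose and 6 fell; Wnt5a rose from 1.09 to 2.39 FPKM (0.70 ± 0.09) and the antagonist Wif1 fell from 1.91 to 0.873 FPKM (-0.64 ± 0.08). Of 21 Hippo-YAP targets 9 rose and 4 fell, with Ajuba higher (0.63 ± 0.05) and Ankrd1 lower, from 853 to 649 FPKM (-0.39 ± 0.03). Forkhead factors other than Foxm1 included Foxc2, which rose from 11.9 to 17.6 FPKM (0.53 ± 0.13, adjusted p = 0.00412), and Foxs1, which fell from 5.86 to 3.71 FPKM (-0.54 ± 0.08).

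In metabolism, Ndrg1 rose from 10.3 to 22.3 FPKM (1.05 ± 0.06) and Adm, adrenomedullin, fell from 61.5 to 29.7 FPKM (-1.02 ± 0.12), although both belong to the list of 28 glycolysis and hypoxia genes, of which 6 rose and 12 fell and, with median-of-ratios scaling, 10 rose and 4 fell. Of 24 cholesterol synthesis and Srebp2 target genes 10 rose and 3 fell; Msmo1, a sterol demethylation enzyme, rose from 111 to 135 FPKM (0.28 ± 0.05) and Stard4 fell from 21.5 to 15.6 FPKM (-0.44 ± 0.06). Of 28 lysosome and autophagy genes 7 rose and 5 fell, with Ctsl higher (0.29 ± 0.03) and Hexa lower (-0.34 ± 0.04). The remaining lists had medians within 0.06 of 0 and majorities that turned with median-of-ratios scaling: NRF2 targets 2 higher and 6 lower of 23 (4 and 3 with median-of-ratios scaling), oxidase and peroxide enzymes 2 and 7 of 20 (6 and 2), p53 targets 4 and 8 of 26 (7 and 5), heat shock chaperones 1 and 8 of 23 (8 and 2) and the proteasome 0 and 3 of 29 (10 and 0). Epicardial and mesothelial markers fell for 5 of 11 and rose for 1.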
